A study of Brassica rapa with 8 samples.

Results

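Open flowers of *Brassica rapa* were compared with the vegetative organs of the same accession, Chiifu-401-42, a Chinese cabbage kept as an inbred line and grown in a greenhouse. The comparison used 6 of the 8 samples of the series: 1 of flower against 2 of leaf, 2 of root and 1 of stem. The flower sample held flowers in bloom on a single day and no floral shoot, whereas leaf, root and stem came from plants of 7 weeks. The pair of leaf samples, like the pair of root samples, was taken from separate batches of plants according to the methods, and the batch of the flower sample is not given in the sources used here. One sample of silique, taken 15 days after pollination, and 1 of callus, from tissue culture, took no part in the comparison and are given beside it. A gene was called raised in flower where its value was at least 4-fold above every one of the 5 vegetative samples, and lowered where it was at least 4-fold below every one, with 1 added to each value first. Values are FPKM, fragments scaled by the length of the gene model and by the mapped fragments of the sample. Of 38200 gene models, 1391 (3.64%) were raised and 595 (1.56%) were lowered. Flower has 1 sample, so these calls have no replicate check and no test was made.

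A flower holds sepals, petals, stamens and carpels, whose identities are set in combination by MADS-box transcription factors. Stamens carry the pollen, whose wall material is made by the surrounding tapetum, and nectaries at the base of the flower secrete sugar. Leaf, root and stem hold none of these structures, and are instead made up largely of photosynthetic, absorptive and conducting tissue. The sample is a mixture of all organs of the flower. More RNA per cell and more cells of a type cannot be told apart in such a sample.

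The gene models of the table carry identifiers without names. Of the 38200 identifiers, 1 could be paired with a name in the RefSeq gene table of the assembly CAAS_Brap_v3.01, so marker lists for floral organs, pollen, photosynthesis, stem and root were not used here. The gene with a name is Bra000116, SWEET9, on Scaffold000001 from 562922 to 564435. SWEET9 encodes a sugar transporter that in *Arabidopsis thaliana* acts in the nectaries, where it exports sucrose for nectar. Its FPKM was 134 in flower (95% confidence interval 127 to 141), whereas it was listed at 0 in both leaf samples, both root samples and stem. It was also listed at 0 in silique, and callus had 0.304 on about 3 fragments. SWEET9 was therefore among the raised genes, and flower was the one sample in which it was clearly detected. No other marker could be used to check the flower label.

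The scatter of all genes shows the 2 sets of called genes on either side of the diagonal.

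**Figure D1:**
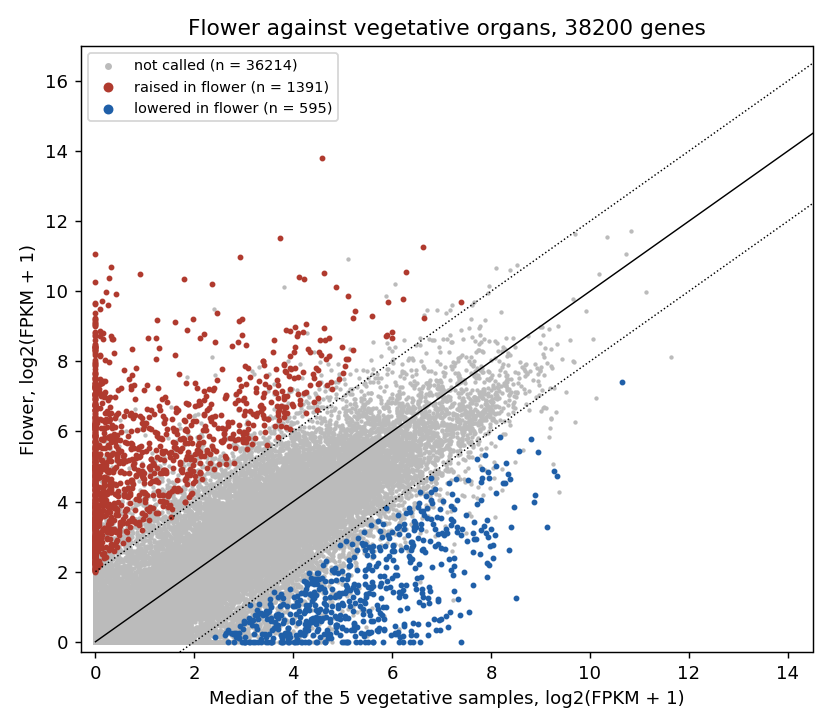
Each point is 1 of 38200 genes, with its flower value on the vertical axis and the median of the 5 vegetative samples on the horizontal axis, both as log2(FPKM + 1). The solid line marks equal values and the dotted lines mark 4-fold differences, and 1391 raised genes (red) lie above and 595 lowered genes (blue) below, many of the raised ones at the left edge where vegetative values are near 0.

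The count against all 3 organs cannot exceed that against any organ alone, since a gene called against all is called against each. Against both leaf samples, flower was at least 4-fold higher for 2328 genes (6.09%) and lower for 1669 (4.37%). The numbers against both root samples were 2722 (7.13%) and 2889 (7.56%), and against stem 2436 (6.38%) and 2798 (7.32%). A gene was higher than at least one organ in 3847 cases and lower than at least one in 5118. Genes that were higher than leaf and stem but not root numbered 422. Those higher than root and stem but not leaf numbered 297, and those higher than leaf and root but not stem numbered 138. For lowered genes, the corresponding numbers were 328 without root, 625 without leaf and 95 without stem. Flower was higher than one organ and lower than another for 277 genes, of which 220 were higher than root and lower than leaf.

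The only measure of variation between plants comes from the paired samples of leaf and root. Leaf 2 and leaf 1 were at least 4-fold apart for 120 genes (0.314%), with leaf 2 above leaf 1 for 63 (0.165%) and below it for 57 (0.149%). Root 2 and root 1 were apart for 122 genes (0.319%), with root 2 above root 1 for 55 (0.144%) and below it for 67 (0.175%). Flower was at least 4-fold higher than leaf 1 alone for 2501 genes (6.55%) and lower for 2403 (6.29%). Against leaf 2 alone it was higher for 2836 (7.42%) and lower for 1790 (4.69%). The numbers were 2867 (7.51%) and 3776 (9.88%) against root 1 alone, and 3078 (8.06%) and 3069 (8.03%) against root 2 alone. The number of lower genes thus depended on which sample of an organ was used. The samples of an organ also differed in scale. The upper quartile of FPKM, over 25028 genes above 0 in all 6 samples, was divided by its geometric mean across the samples. It was 1.02 in leaf 1 and 0.803 in leaf 2, and 1.16 in root 1 and 0.970 in root 2. How far this shaped the counts was not tested. Among called genes, the samples of leaf or root were themselves at least 4-fold apart for 1 raised and 5 lowered genes. The larger of the leaf and root sample differences had a median of 0.18 on the log2(FPKM + 1) scale for raised genes and 0.43 for lowered genes. Over all genes the median difference was 0.202 for the leaf pair and 0.218 for the root pair. The highest vegetative value was under 1 FPKM for 736 of the 1391 raised genes, which keeps their differences small on this scale. Lowered genes needed at least 3 FPKM in each vegetative sample, so these medians do not show which set is better reproduced. With leaf 1, root 1 and stem alone, 1462 genes were raised and 907 lowered, and with leaf 2, root 2 and stem alone, 1541 were raised and 609 lowered.

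**Figure D2:**
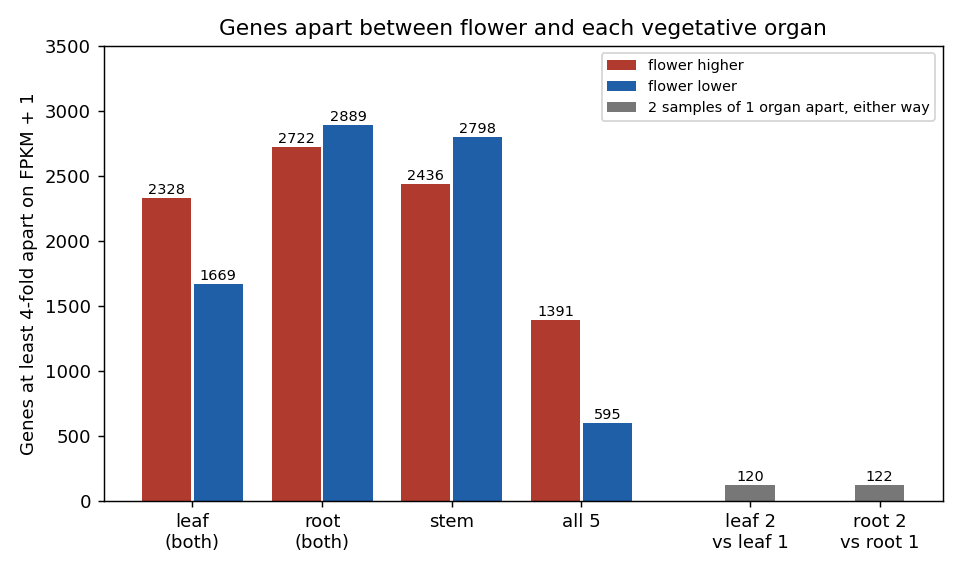
Bars give the number of genes at least 4-fold apart on FPKM + 1, between flower and each vegetative organ, between flower and all 5 vegetative samples, and between the 2 samples of leaf or of root. The 1391 raised and 595 lowered genes were apart in one direction from all 5 vegetative samples. The 120 genes of leaf and 122 of root were apart in either direction between 2 samples, so these counts are not on the same rule.

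Most raised genes were low or listed at 0 in the vegetative organs. The highest vegetative value was under 1 FPKM for 736 of the 1391 (52.9%), and 293 (21.1%) were listed at 0 in all 5 vegetative samples. Their median FPKM was 35.4 in flower (quartiles 12.9 and 89.1). It was 0.175 and 0.150 in the leaf samples, 0.221 and 0.190 in the root samples and 0.162 in stem. Over all genes the medians ranged from 2.00 in leaf 2 to 3.74 in root 1. The median was 3.03 in flower, 2.59 in leaf 1, 2.96 in root 2 and 3.50 in stem. In flower 560 of the raised genes exceeded 50 FPKM and 76 did not exceed 5. The raised genes held 24.6% of the summed FPKM of the flower sample, against 0.859% and 0.726% in leaf, 0.645% and 0.587% in root and 0.604% in stem. Among the 80 genes above 500 FPKM in flower, 48 were raised. These levels follow in part from how the genes were chosen and are given as a description.

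Other raised genes were clearly detected in vegetative tissue. The highest vegetative value exceeded 5 FPKM for 340 genes and 50 FPKM for 29. Of the 655 genes with a vegetative value of at least 1, the organ with the highest mean was root for 287, leaf for 211 and stem for 157. The distance over the highest vegetative sample had a median of 3.29 on the log2(FPKM + 1) scale (quartiles 2.51 and 4.63). It was between 2 and 3 for 577 genes and 8 or more for 36. For genes listed at 0 in the vegetative samples this distance is set by the added 1 and is not a fold change.

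The raised gene with the highest flower level was Bra017112, on Scaffold000021 from 1347727 to 1348457, the most abundant gene of the flower sample. Its FPKM was 14316 in flower, against 324 and 315 in leaf, 1.58 and 1.29 in root and 23.0 in stem. This gene alone made up 2.34% of the summed FPKM of flower. Leaf was far above root and stem for this gene and flower was above leaf by 5.46 on the log2(FPKM + 1) scale. The mean leaf level was 319.5 ± 6.97 (SD, n = 2) and the mean root level 1.44 ± 0.204 (SD, n = 2).

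The largest distance over the vegetative samples was that of Bra039743, on Scaffold000175 from 70885 to 72992. Its FPKM was 2137 in flower (95% confidence interval 2118 to 2157), against 0 and 0.134 in leaf, 0 and 0 in root and 0.168 in stem. The values above 0 in leaf 2 and stem each rested on about 3 fragments and had intervals reaching 0. This was the seventh most abundant gene in flower, with no clear signal in any vegetative sample. The 20 raised genes with the largest distances had 392 to 2137 FPKM in flower, against at most 0.575 in any vegetative sample.

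Lowered genes had to be expressed in all 5 vegetative samples, since a 4-fold lower value on FPKM + 1 needs at least 3 FPKM in each of them, whereas raised genes could be listed at 0 there. The levels of the lowered genes therefore follow in part from the rule and are given as a description. Their median FPKM was 1.35 in flower, against 35.2 and 26.3 in leaf, 60.0 and 49.2 in root and 41.8 in stem. Flower was listed at 0 for 52 of the 595 genes and was under 1 FPKM for 262 (44.0%), whereas 144 were above 5. The genes held 0.406% of the summed FPKM of flower, against 6.01% and 4.82% in leaf, 9.87% and 9.27% in root and 6.71% in stem. The organ with the highest mean was root for 330 genes, stem for 171 and leaf for 94. The organ nearest to flower, that with the lowest mean, was leaf for 297. The highest vegetative sample stood within 4-fold of the lowest for 371 of the genes (62.4%). The distance to the lowest vegetative sample had a median of -2.75 (quartiles -3.51 and -2.29), and no lowered gene reached 8 in size. Of the 1182 genes above 50 FPKM in every vegetative sample, 146 (12.4%) were lowered, against 1.56% of all genes. That subset was formed on vegetative values, which the rule also used, so a higher share in it is favoured by the choice.

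**Figure D3:**
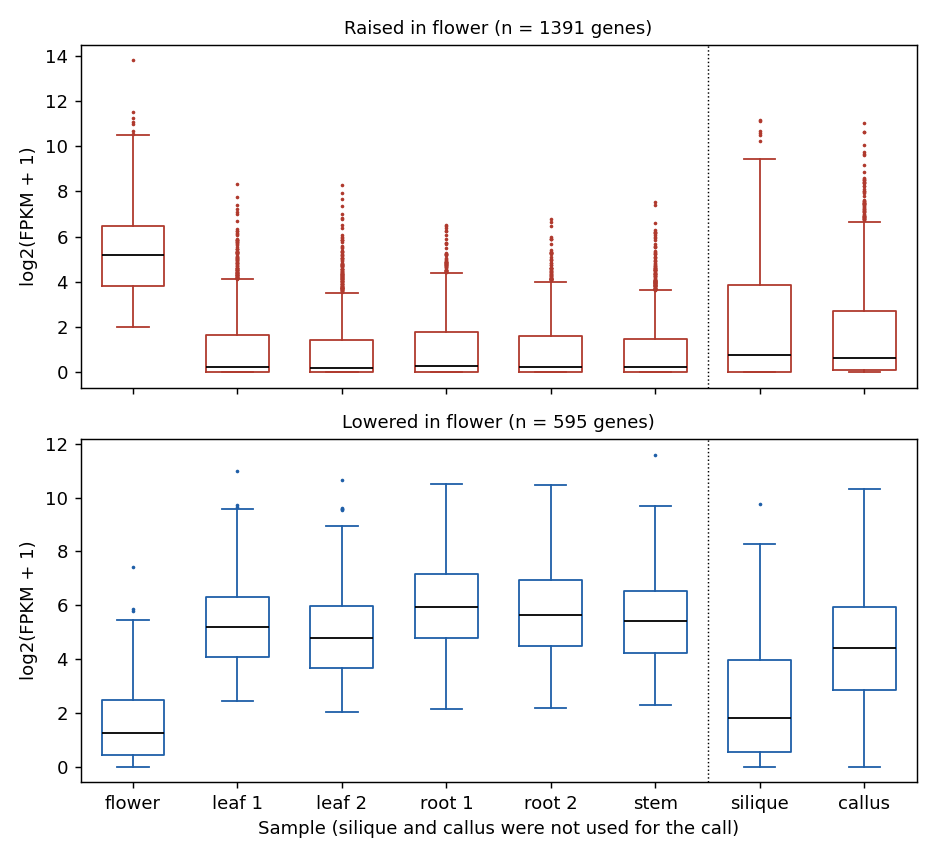
Boxes give the quartiles of log2(FPKM + 1) over the raised genes (upper panel) and the lowered genes (lower panel) in each sample, with the median as a line, whiskers to 1.5 times the box height and single genes beyond. Silique and callus, right of the dotted line, were not used for the calls. The raised genes have a median of 0.685 FPKM in silique and 0.556 in callus, and the lowered genes 2.48 and 20.2.

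Bra031210, on Scaffold000074 from 1150725 to 1151628, was the lowered gene with the highest vegetative level. Its FPKM was 169 in flower, against 2041 and 1600 in leaf, 1445 and 1429 in root and 3114 in stem. The gene was still well expressed in flower, and the difference of flower from root 2, the lowest vegetative sample, was -3.08 on the log2(FPKM + 1) scale. Stem had the highest value, and the root samples differed little, with 1437 ± 11.6 (SD, n = 2), whereas leaf had 1821 ± 312 (SD, n = 2).

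Bra011529, on Scaffold000011 from 2558294 to 2559207, had the largest distance among the lowered genes. It was listed at 0 in flower, against 166 and 97.3 FPKM in leaf, 562 and 420 in root and 132 in stem. Root was the highest organ, and the lowest vegetative value, that of leaf 2, rested on about 988 fragments. Silique and callus had 44.3 and 32.7 FPKM, so flower was the one sample in which this gene was listed at 0.

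**Figure D4:**
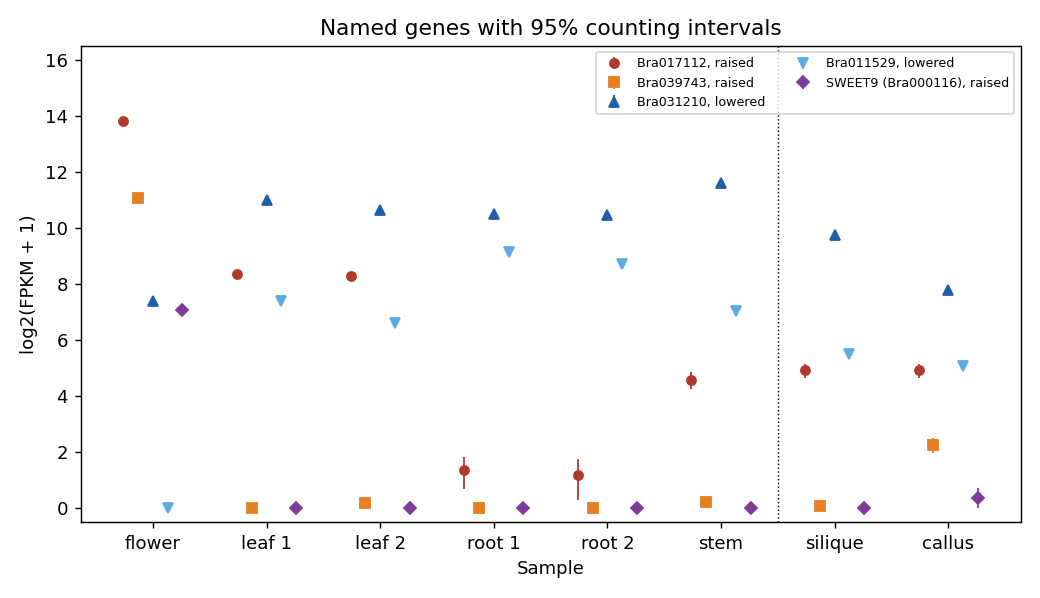
Points give log2(FPKM + 1) of the 5 named genes in each sample, with bars for the 95% confidence interval of each value, which covers counting error only. SWEET9 and Bra039743 stand near 0 in all vegetative samples and at 134 and 2137 FPKM in flower, whereas Bra011529 is listed at 0 in flower alone.

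Silique and callus were not used for the calls. Of the 1391 raised genes, 882 (63.4%) were at least 4-fold lower in both silique and callus than in flower on FPKM + 1. A further 123 were at least 4-fold lower in silique only, 239 in callus only, and 147 in neither. Silique was at least 4-fold below flower for 2553 (6.68%) of all genes and callus for 2948 (7.72%). The raised genes were chosen for a high flower value, so a lower value elsewhere is favoured by the choice. The 882 genes had a median FPKM of 37.2 in flower, against 0.0465 in silique and 0.226 in callus, and 578 of them did not reach 1 FPKM in any vegetative sample. The 239 genes at least 4-fold lower in callus only had medians of 27.8 FPKM in flower and 27.1 in silique, against 0.585 in callus. The 123 lower in silique only had 32.3 in flower and 22.2 in callus, against 2.50 in silique. The 147 lower in neither had 40.6 in flower, 37.9 in silique and 28.0 in callus. These medians follow in part from how the classes were formed. Silique exceeded flower by at least 4-fold for 45 raised genes (3.24%) and callus for 11 (0.791%), against 4.59% and 6.45% of all genes.

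For lowered genes silique and callus differed from each other. Silique was at least 4-fold above flower for 119 of the 595 genes (20.0%) and callus for 379 (63.7%), against 4.59% and 6.45% of all genes. Both were at least 4-fold above flower for 100 genes, callus alone for 279, silique alone for 19 and neither for 197. The 279 genes had medians of 0.885 FPKM in flower, 1.19 in silique and 34.5 in callus. Over all lowered genes the median in silique was 2.48, nearer to the 1.35 of flower than to any vegetative sample, whereas in callus it was 20.2. The lowered genes were chosen for a low flower value, so a higher value elsewhere is favoured by the choice. Silique and callus have 1 sample each, and flower is common to these comparisons. The highest gene held 128522 of a summed 744484 FPKM in callus and 29280 of 634337 in silique, against 14316 of 610879 in flower. Silique and callus were not rescaled. How far scale shaped their counts, for raised or lowered genes, was not tested.

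**Figure D5:**
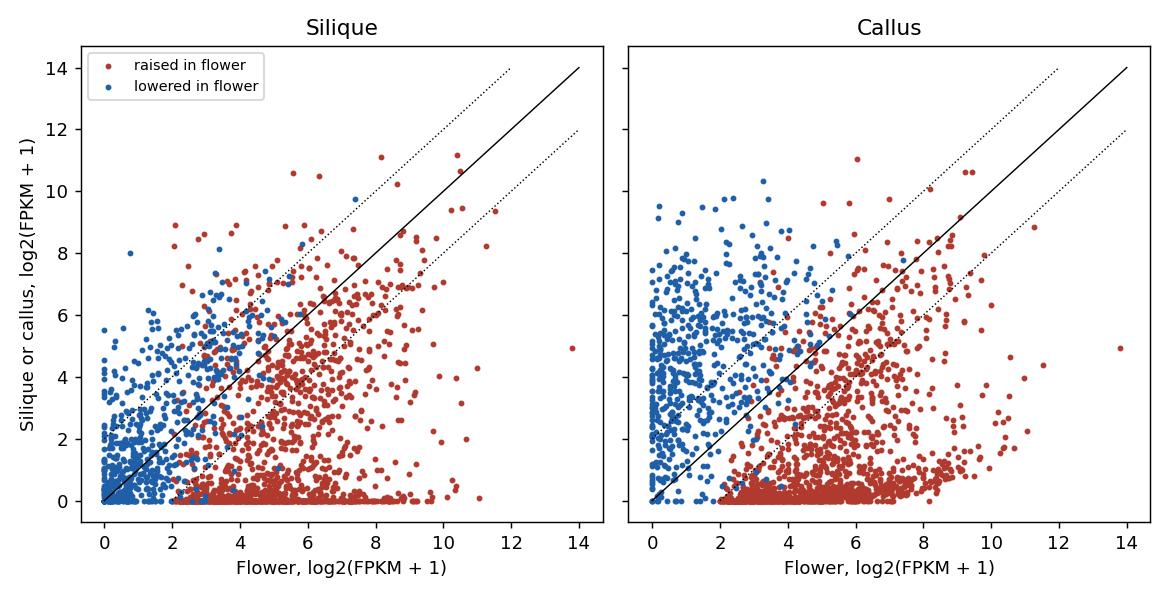
Each point is a raised (red) or lowered (blue) gene, with its flower value on the horizontal axis and its value in silique (left) or callus (right) on the vertical axis, as log2(FPKM + 1). The solid line marks equal values and the dotted lines 4-fold differences. Most lowered genes lie above the upper dotted line in callus (379 of 595) but not in silique (119), and at the lower right of the callus panel many raised genes follow a rising curve close to 0.

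Among raised genes, a faint callus signal accompanied the flower level. This was examined after the values were seen, over the 163 raised genes with at least 50 FPKM in flower and under 1 FPKM in every vegetative sample and silique. Callus was above 0 for 143 of the 163 (87.7%), at a median of 0.216% of the flower level (quartiles 0.132% and 0.329%). Leaf 1 and leaf 2 were above 0 for 31 and 51 of these genes, root 1 and root 2 for 55 and 51, stem for 29 and silique for 47, each with a median of 0%. In the 10 of these genes with the highest flower level, 541 to 2137 FPKM, callus had 0.717 to 3.78 FPKM, between 0.0987% and 0.236% of flower. For the highest of these, Bra039743, the callus value of 3.78 rested on about 80 fragments. The vegetative samples and silique were held under 1 FPKM by the choice of these genes, whereas callus was not. Lower shares in those samples than in callus are thus favoured by the choice. Callus took no part in the calls, and the cause of this signal was not tested.

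The called genes were spread over many scaffolds, with the raised ones on 186 and the lowered ones on 140 of 423. On the 20 scaffolds with the most genes, between 2.83% and 6.13% of genes were raised, around the 3.64% of the whole table, and between 0.452% and 2.83% were lowered. A raised gene stood next to another raised gene in 183 cases (13.2%), whereas 6.79% of the other genes had a raised neighbour. A lowered gene stood next to another in 56 cases (9.41%), against 2.94% of the other genes. Neighbours were taken among the gene models listed, and the paper annotates more genes than are listed, so some genes between them may be skipped. Neighbouring genes can be copies of one another, and reads of near-identical copies may be split or lost in counting, which was not tested. Of the raised genes 9 (0.647%) were counted as sharing a locus with another model, and of the lowered ones 3 (0.504%), against 387 (1.01%) of all genes. That count leaves out some overlaps in position. Among lowered genes, Bra002718 overlaps Bra002719, Bra003114 overlaps Bra003115 and Bra006691 overlaps Bra006692. Likewise, Bra011180 overlaps Bra011181 and Bra024087 overlaps Bra024088. Such pairs are among the lowered genes counted as neighbours. How much such overlap adds to the shares of neighbours was not tested.

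The longest runs of called genes, adjacent among the models listed, held 3 genes, of which there were 3 among the raised and 2 among the lowered. On Scaffold000077, from 1177582 to 1182407, 3 consecutive genes had 56.8, 10.3 and 61.0 FPKM in flower, against at most 0.254 in any vegetative sample. On Scaffold000008, from 3069499 to 3086080, the later genes had 56.1 and 332 FPKM in flower, against at most 0.0766 in vegetative samples. The first gene of that run had 106 FPKM in flower, against 18.6 and 9.99 in leaf, 16.8 and 10.5 in root and 14.9 in stem. The members of a run could thus differ widely in vegetative level. The raised run on Scaffold000004, from 6003287 to 6020856, had 51.3, 27.2 and 35.5 FPKM in flower, against at most 3.84 in vegetative samples.

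The lowered runs differed in their silique levels. On Scaffold000190, from 4042 to 19169, the 3 genes had 0.178, 0.576 and 1.70 FPKM in flower, against 33.1 to 339 in vegetative samples. Silique had 0.214, 6.25 and 13.6 FPKM for these genes, the later ones more than 4-fold above flower on FPKM + 1. On Scaffold000038, from 1032182 to 1047253, the 3 genes had 0.289, 0.135 and 0.190 FPKM in flower, against 4.94 to 43.6 in vegetative samples, and all 3 were listed at 0 in silique. The middle gene of each run was highest in root.

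Locus spans, introns included, had a median of 1640 bases for raised genes, 1423 for lowered genes and 1781 for all genes. The 100 lowered genes at least 4-fold higher in both silique and callus than in flower had a median span of 994.5 bases. The 197 that were at least 4-fold higher in neither had 1661. The 279 at least 4-fold higher in callus only had 1416, and the 19 in silique only had 989.

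Depth was derived from the width of the deposited 95% confidence intervals, since the table holds no counts. Per unit of FPKM, leaf 2 held 0.991 times as many fragments as flower, root 2 held 1.00 times and stem 0.788 times, whereas leaf 1 and root 1 were sequenced more deeply. The raised genes rested on a median of 437 fragments in flower (9 at the lowest), and 15 of them on under 20. For the lowered genes the vegetative sample with the fewest fragments had a median of 226, and 14 at the lowest. With the nearer bounds of the intervals in place of the values, 1085 genes were raised and 379 lowered. The raised gene just inside the threshold had 508 FPKM in flower against 126 in leaf 1, its highest vegetative sample, and the one just outside had 107 against 25.9 in stem. The lowered gene just inside had 1.46 FPKM in flower, from about 9 fragments, against 8.85 in leaf 2, and the one just outside had 22.5 against 93.1 in root 2. Between 3.5-fold and 4-fold lay 192 genes on the raised side and 105 on the lowered side.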

How the data were processed

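RNA-seq was done on poly(A)+ RNA of 8 samples from 6 tissues. The authors deposited FPKM, with the bounds of its 95% confidence interval, for 38200 gene models in one table whose first line names the sample of each column. Per the methods, paired reads were trimmed at their start, filtered for quality, mapped uniquely with TopHat and quantified with Cufflinks. The submitters' processing notes name TopHat 1.0.13. Gene positions are given on scaffolds, and whether the deposited values stem from the mapping described in the methods is not given in the sources used here. Because FPKM is a relative measure, an abundant gene lowers the values of all others in its sample. Folds on FPKM + 1 understate the change of low genes.

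Calls were made on FPKM + 1 at 4-fold against every vegetative sample, without a filter on low values and without a test, since flower has 1 sample. On simulated data the rule was run with 100 genes changed per direction, all well expressed and changed by far more than 4-fold. Their recovery was favoured by that setting, so the run says nothing of error rates in the real samples. The fragments behind a value were taken as (2 FPKM / (upper bound - FPKM)) squared, assuming Poisson counting. Of values below 200 fragments, 87.6% to 92.6% per sample came out within 0.05 of a whole number. The intervals therefore hold counting error only.

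The named genes were, for each direction, the gene with the highest level (in flower if raised, in its lowest vegetative sample if lowered) and the gene with the largest distance, together with the one gene that has a name. The members and lists were chosen with earlier results of these data known. The gene lists set for floral organs, pollen, photosynthesis, stem, root and glucosinolates were not used, since identifiers could not be paired with names. Alternatives covered pseudocounts, folds, filters, scaling, interval bounds and leaving out vegetative samples. Python 3.11.15 with numpy 2.4.6, pandas 2.3.3 and matplotlib 3.10.9 was used.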

Additional observations from a re-analysis of the deposited data

Results flagged for a closer look

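The callus sample, which the flower comparison did not use, carried a signal for genes otherwise seen in flower. Over the 163 raised genes with at least 50 FPKM in flower and under 1 FPKM in the 5 vegetative samples and silique, the median callus FPKM was 0.216% of the flower FPKM, against a median of 0% in each of the other 6 samples. Those 6 samples were held under 1 FPKM by the choice of genes and callus was not, so the contrast is favoured by the choice. No cause was tested. The 4-fold calls do not use callus.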

How the results depend on the processing

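Fold threshold and pseudocount moved the counts most. Raised and lowered genes numbered 2272 and 1212 with a pseudocount of 0.1, 821 and 253 with 5, 2727 and 1812 at 2-fold, and 814 and 238 at 8-fold. Lowered genes numbered 379 with interval bounds and 907 with leaf 1, root 1 and stem only, a setting added after seeing the data. Leaving out one leaf or root sample gave 1404 to 1472 raised and 598 to 767 lowered genes, and leaving out stem 1529 and 690. Upper-quartile scaling shifted flower by 0.18 on the log2 scale relative to the vegetative mean and gave 1569 and 565, and median-ratio scaling 1566 and 572. In both scalings raised genes remained the larger group, at 73.5% and 73.2% of calls, against 70.0% with FPKM as deposited. That holds for the rule on all 5 vegetative samples, which the scalings did not change. Against at least one organ, 5118 genes were lower and 3847 higher. Lower genes were also more numerous against root and against stem, whereas higher genes were more numerous against leaf. Of 45 recomputed distances of the named genes, 14 moved by more than the counting error, and that of SWEET9 was 10.39 with a pseudocount of 0.1 and 4.80 with 5. Their sign was fixed by how the genes were chosen. No paired analysis was possible because flower and stem have 1 sample each and no test was made. Depth limits calls of low genes: where flower is listed at 0, absence cannot be told from a level too low to detect.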
